A study of Mus musculus with 6 samples.

Results

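Genes of the p53 response and of the core apoptosis machinery were followed in mouse embryonic lung buds that carried floxed alleles of the histone deacetylase genes Hdac1 and Hdac2 with a Cre driver of the epithelium, and in their controls. The list of 42 genes was drawn up by function, with earlier results of these data known. It held 25 regulators and targets of p53, and 17 core apoptosis genes. Of these, 23 p53 genes and all 17 apoptosis genes had a probe that the platform annotation gives to 1 gene alone, so 40 of the 19938 measured genes are described. Trp53 itself and Bax were not analysed here.

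Whole lung buds were dissected at E11.5, the stage at which the first branches form, and each sample was profiled on an Affymetrix MoGene 1.1 ST array. The 3 control samples carried the Shhcre allele alone. The 3 DKO (double knockout) samples carried Shhcre with both copies of Hdac1 and of Hdac2 floxed, so all 6 samples carried Shhcre, and the strain background of both groups mixed C57BL/6 with 129X1 and 129S1. Shhcre expresses Cre recombinase from the Sonic hedgehog locus, which is active in the lung epithelium, so mesenchyme, vessels and blood in the same sample are not targeted directly and dilute a change in the epithelium. The labels call the samples biological replicates without saying whether each was 1 embryo or a pool, and the p-values measure only the spread between these samples.

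The transcription factor p53 is held low by the ubiquitin ligase Mdm2 and its relative Mdm4, and is released by DNA damage and other stress. It then switches on genes that halt the cell cycle, repair DNA, adjust metabolism and autophagy, or start apoptosis. In apoptosis, BH3-only proteins neutralise the anti-apoptotic BCL2 family, the effectors Bax and Bak1 open the mitochondrial membrane, and released cytochrome c assembles with Apaf1 to activate Casp9, while IAP proteins hold caspases in check. Much of p53 activity is set by protein stability and modification, including acetylation that class I histone deacetylases can remove, and this is not seen in RNA levels.

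The targeted gene Hdac1 was lower in DKO (log2 change -0.28, SE 0.05, adjusted p = 0.0193 by limma), and Hdac2 differed by -0.04 (SE 0.06, adjusted p = 0.845). The position of these probes relative to the deleted exons is not known here, so they may not check the genotype. Leaving out control 1, 2 or 3 gave Hdac1 an adjusted p of 0.0883, 0.0932 or 0.112, leaving out DKO 1 or DKO 3 gave 0.0517 or 0.0643, and the call was lost each time. The lung label was borne out by its markers, with Nkx2-1, the lung determinant of the epithelium, at log2 levels of 10.20 to 10.60 and Tbx4, a transcription factor of lung mesenchyme, at 11.36 to 11.42. Of 12 lung epithelium markers, 8 fell and 0 rose at an adjusted p under 0.05, against 1.38% and 1.03% of all genes. Their summed linear level was 12939 to 13946 in control and 8805 to 9946 in DKO. The summed levels of the other marker lists lay closer together: 19094 to 19464 in control and 18608 to 18920 in DKO for 6 mesenchyme genes, 7222 to 7417 and 7746 to 8837 for 6 endothelial genes, 28337 to 30736 and 31171 to 31319 for 5 erythroid genes, and 2070 to 2160 and 1754 to 1982 for 6 leukocyte genes. No member of these 4 lists passed the threshold, but none of the 4 ranges overlapped between the groups. DKO was higher for the endothelial and erythroid genes and lower for the mesenchyme and leukocyte genes. At an unadjusted p under 0.05 by limma, 5 of 6 leukocyte genes were lower, against 6.83% of all genes. In the same test 2 endothelial and 2 erythroid genes were higher, against 6.00%, and 0 mesenchyme genes differed. The lowest log2 level of any marker was 7.13, below the array medians of 7.87 to 7.89 over all probes. Detection above background was not tested. The part of these shifts in the results below was not tested. Deviations from the group mean over all genes had an SD of 0.0705 to 0.105 on the DKO arrays and 0.0596 to 0.0645 on the controls.

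A few p53 targets changed in the DKO buds, and none of the core apoptosis genes passed the same test. Of the 23 p53 genes, 3 rose (Dram1, Ccng1 and Perp) and 1 fell (Btg2) at an adjusted p under the threshold of 0.05, where 1.03% of all genes rose and 1.38% fell. Of the 17 core apoptosis genes, limma called 0. Both lists were chosen with earlier results of these data known, so these counts describe them and do not test them. At an unadjusted p under 0.05, 7 p53 genes were higher and 2 lower, against 6.00% and 6.83% of all genes, and 1 core apoptosis gene was higher and 0 lower. All DKO values lay above all control values for 6 of the 23 p53 genes and below them for 2, against 8.36% and 10.4% of all genes. The same counts for the 17 core apoptosis genes were 1 and 2. The median change was 0.03 over the p53 genes, 0.01 over the core apoptosis genes and 0.00 over all genes. The median size of the change, in either direction, was 0.06, 0.05 and 0.06 on the log2 scale for the same 3 sets. The count of 4 calls among p53 genes became 2 without control 1 and 2 without control 2, leaving Dram1 and Ccng1 both times, and 7 with array weights, which added Zmat3, Tnfrsf10b and Fas. The 481 calls over all genes became 215, 197 and 215 without controls 1, 2 and 3, 811 without DKO 2 and 317 without DKO 3.

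**Figure D1:**
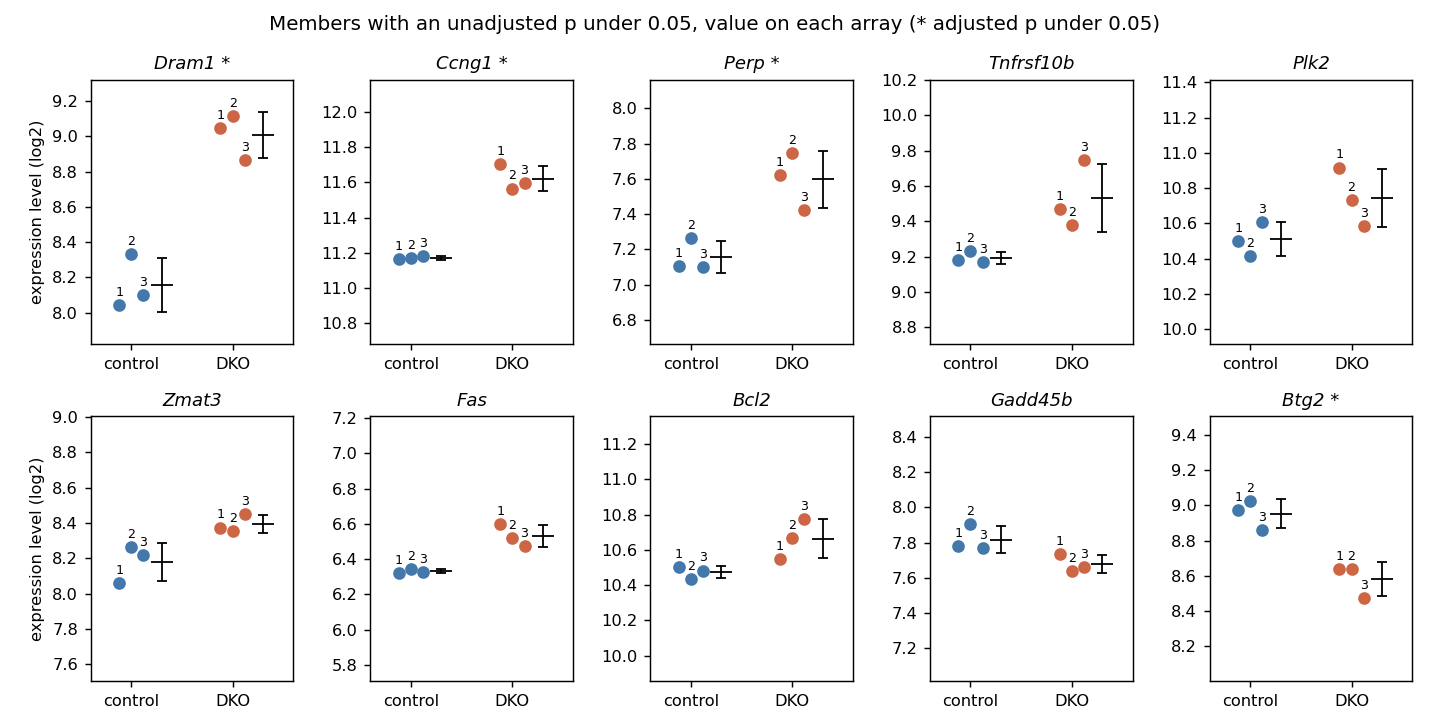
Log2 expression level on each array for the 10 genes with an unadjusted p under 0.05, with arrays numbered by replicate, control in blue and DKO in orange, and the mean with its SD (n = 3) as black bars; every panel spans the same range of log2 units. Dram1, Ccng1 and Perp are higher and Btg2 is lower in all DKO arrays, and of the others only Plk2 has overlapping groups.

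Among the regulators of p53, neither measured gene passed. Mdm2, the ligase that degrades p53 and is itself a p53 target, stood at 9.80, 9.81 and 9.83 in controls 1 to 3 and at 9.80, 9.75 and 9.88 in DKO 1 to 3. The 2 groups overlapped fully, with a change of -0.0021 (SE 0.05, 95% confidence interval -0.12 to 0.12, adjusted p = 0.994). Mdm4, which binds p53 and blocks its activation domain, changed by -0.05 (SE 0.06, interval -0.18 to 0.08, adjusted p = 0.809). The upper bound of 0.12 for Mdm2 compares with changes of 0.85 for Dram1 and 0.45 for Ccng1, other targets of p53. Whether p53 activity differed between the groups was not tested.

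In the group of growth arrest and cell cycle targets, 1 of 7 rose and 1 fell, against 1.03% and 1.38% of all genes. Ccng1, which encodes cyclin G1, a partner of the phosphatase PP2A that acts back on Mdm2, had log2 levels of 11.16, 11.17 and 11.18 in controls 1 to 3 and 11.70, 11.57 and 11.60 in DKO 1 to 3. The controls were nearly identical and every DKO array lay far above them. The change was 0.45 (SE 0.05, interval 0.33 to 0.57, adjusted p = 0.00354), a 1.37-fold rise. Btg2, an antiproliferative factor that promotes mRNA deadenylation, was at 8.97, 9.02 and 8.86 in control and at 8.64, 8.64 and 8.47 in DKO. No DKO value reached a control value, and replicate 3 was the lowest in both groups. The fall was 1.29-fold (-0.37, SE 0.07, interval -0.52 to -0.22, adjusted p = 0.0250). In whole buds, fewer cells that express Btg2 and less Btg2 RNA per cell cannot be told apart.

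The other growth arrest genes did not pass. Plk2, a polo-like kinase of the stress response, was at 10.50, 10.42 and 10.61 in control and at 10.92, 10.73 and 10.59 in DKO. DKO 3 lay within the control range and DKO 1 well above it (change 0.24, SE 0.09, interval 0.04 to 0.43, adjusted p = 0.273). Its paralog Plk3 differed by 0.01 (SE 0.05, adjusted p = 0.955). The Gadd45 genes encode small proteins that activate stress kinases and take part in DNA repair. Gadd45b was at 7.78, 7.90 and 7.77 in control and 7.73, 7.64 and 7.66 in DKO, separate but close (-0.14, SE 0.06, adjusted p = 0.357). Gadd45g gave -0.13 (SE 0.07, adjusted p = 0.472) with DKO 3 inside the control range, and Gadd45a, the member most often linked to p53, gave -0.01 (SE 0.08, adjusted p = 0.986).

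Dram1 had the largest change of the 40 genes. It encodes a lysosomal membrane protein that links p53 to autophagy. Its log2 levels were 8.04, 8.33 and 8.10 in controls 1 to 3 and 9.05, 9.11 and 8.86 in DKO 1 to 3. The lowest DKO array lay above the highest control array by more than either group's spread (SD 0.15 in control and 0.13 in DKO). The rise was 1.80-fold (0.85, SE 0.09, interval 0.65 to 1.05, adjusted p = 0.00193), which ranked 11 by size among the rises of all genes.

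The remaining stress, repair and survival targets gave 0 calls. Zmat3, a zinc finger RNA-binding protein that affects splicing and mRNA stability, was at 8.06, 8.26 and 8.22 in control and at 8.37, 8.35 and 8.45 in DKO. The groups were separate, with a gap smaller than the SD of the controls (0.21, SE 0.06, interval 0.07 to 0.36, adjusted p = 0.164). The sestrins, stress-induced proteins that restrain mTORC1, lay on either side of 0, with Sesn1 at -0.06 and Sesn2 at 0.05 (adjusted p = 0.753 and 0.867). Rrm2b, the p53-inducible ribonucleotide reductase subunit that supplies nucleotides for repair, changed by 0.06 (adjusted p = 0.812). Trp53inp1, which promotes p53 phosphorylation and autophagy, changed by 0.01 (adjusted p = 0.977), and Phlda3, an inhibitor of Akt, by -0.03 (adjusted p = 0.907). Dram1 was thus the 1 called gene of 7 in this group, where 1.03% of all genes rose. The median change of the group was 0.05.

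Of the 7 measured death-promoting targets, 1 rose, against 1.03% of all genes, and 6 did not pass. The fitted change was above 0 for all 7, as it was for 10002 of the 19938 genes, but for 4 of the 7 it was 0.04 or less, and those of Bbc3, Pmaip1 and Aen turned negative in 2, 1 and 2 of the 6 fits with 1 array left out, and that of Pmaip1 also with array weights. Perp encodes a tetraspan membrane protein that promotes p53-dependent death and is also a component of desmosomes in epithelia. It was at 7.10, 7.26 and 7.10 in control and at 7.62, 7.75 and 7.42 in DKO. Each DKO array lay above each control, with DKO 3 the closest. The rise was 1.36-fold (0.44, SE 0.09, interval 0.25 to 0.63, adjusted p = 0.0346). The 12 lung epithelium markers had a median change of -0.53 on the same arrays, with 11 below 0 and 1 above. The part of cell composition in the change of Perp was not tested.

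The receptors of the extrinsic pathway came next in size without passing. Tnfrsf10b, the mouse death receptor for TRAIL, was at 9.18, 9.23 and 9.17 in control and at 9.47, 9.38 and 9.75 in DKO. The groups were separate, and DKO 3 stood well above the other 2 DKO arrays (SD 0.19 in DKO against 0.03 in control). Its change of 0.34 (SE 0.09, interval 0.14 to 0.54) had an adjusted p of 0.102, and without DKO 2 it passed with a change of 0.41 (adjusted p = 0.0197). Over its alternatives the adjusted p ran from 0.00137 with array weights to 0.308, and an intensity trend in the fit gave 0.0404. Fas, the receptor of Fas ligand, was at 6.32, 6.34 and 6.32 in control and at 6.60, 6.52 and 6.48 in DKO. All DKO arrays were above the tight controls, and DKO 1 was the highest (0.20, SE 0.05, interval 0.08 to 0.32, adjusted p = 0.102). The order of the DKO arrays thus differed between genes: DKO 3 was the highest for Tnfrsf10b and the lowest for Dram1, Perp and Fas.

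The p53 targets that act at the mitochondria or in the nucleus and endoplasmic reticulum had changes of 0.04 or less. Bbc3, which encodes the BH3-only protein PUMA, was at 7.01, 6.91 and 6.98 in control and at 6.85, 7.13 and 7.01 in DKO. Pmaip1, which encodes the BH3-only protein NOXA, was at 6.97, 6.94 and 6.98 in control and at 6.86, 7.19 and 6.92 in DKO. For both genes DKO 1 was the lowest and DKO 2 the highest of all 6 arrays, and the groups overlapped. The changes were 0.03 for each (interval -0.14 to 0.19 for Bbc3 and -0.16 to 0.21 for Pmaip1, adjusted p = 0.942 and 0.949). Both genes, like Fas, were among the dimmest 30% of genes, so their flat values may miss a change. Aen, an exonuclease that enhances apoptosis, gave 0.02 (adjusted p = 0.939), and Ei24, an endoplasmic reticulum protein of autophagy, gave 0.04 (adjusted p = 0.850).

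**Figure D2:**
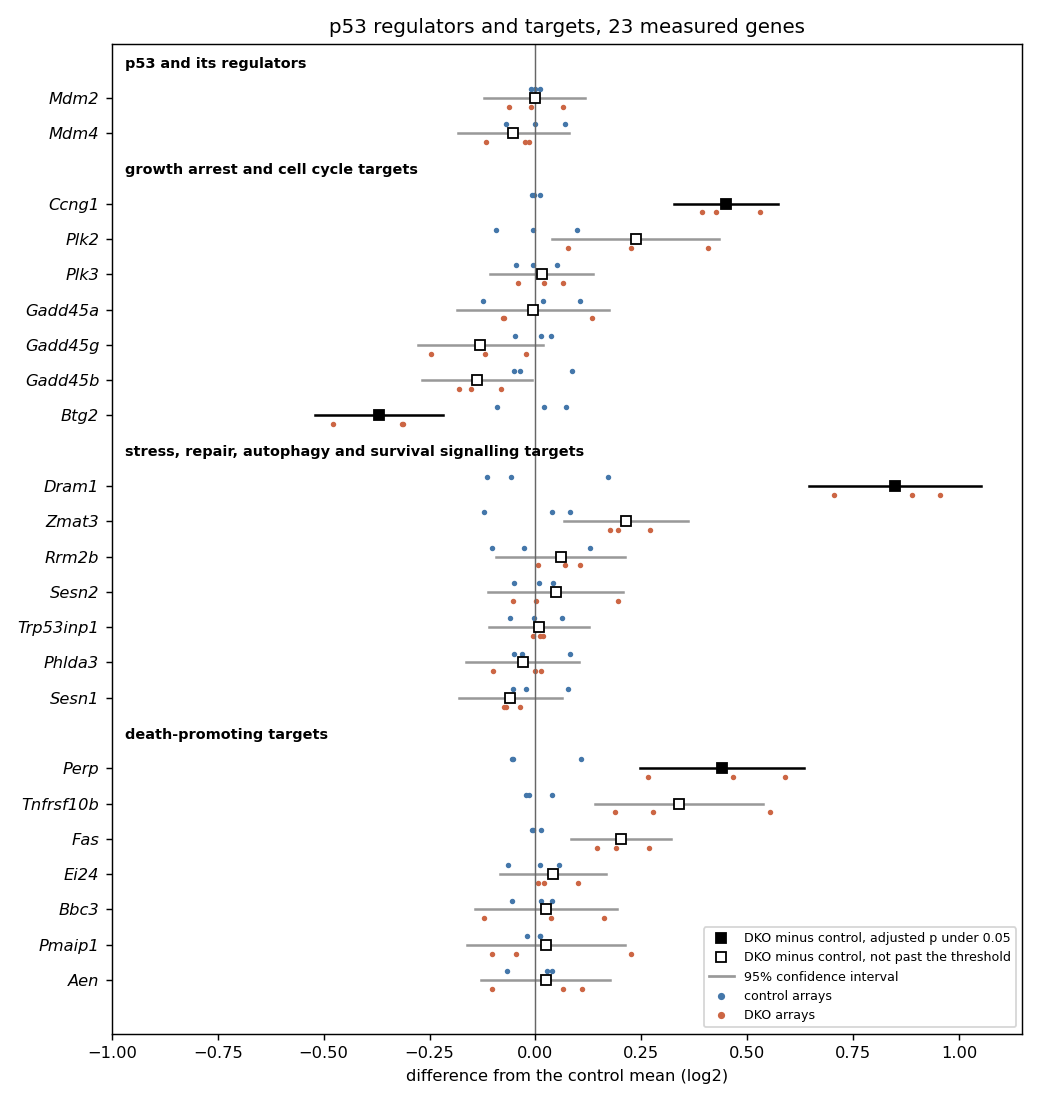
Change of each of the 23 measured p53 genes, grouped by role: squares give DKO minus control on the log2 scale, lines the 95% confidence intervals from limma, blue and orange dots the single control and DKO arrays relative to the control mean. Filled squares mark Ccng1, Btg2, Dram1 and Perp, the 4 genes past the threshold, and of the others Tnfrsf10b lies farthest from 0.

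Dram1 and Ccng1 passed on each of the 6 sets of 5 arrays, and Perp and Btg2 did not. With each array left out in turn, the change of Dram1 lay between 0.79 and 0.94 (adjusted p = 0.00181 to 0.0160) and that of Ccng1 between 0.41 and 0.48 (adjusted p = 0.00181 to 0.0280). Perp kept a change of 0.37 to 0.53, but did not pass without control 1, 2 or 3 (adjusted p = 0.157, 0.0671 and 0.153) or DKO 1 (0.0907). Btg2 kept a change of -0.41 to -0.31, but missed the threshold when control 1, control 2 or DKO 3 was removed (adjusted p = 0.124, 0.128 and 0.0769). Fitting and adjusting over all probes in place of named genes also ended the calls of Perp (adjusted p = 0.133) and Btg2 (0.110).

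**Figure D3:**
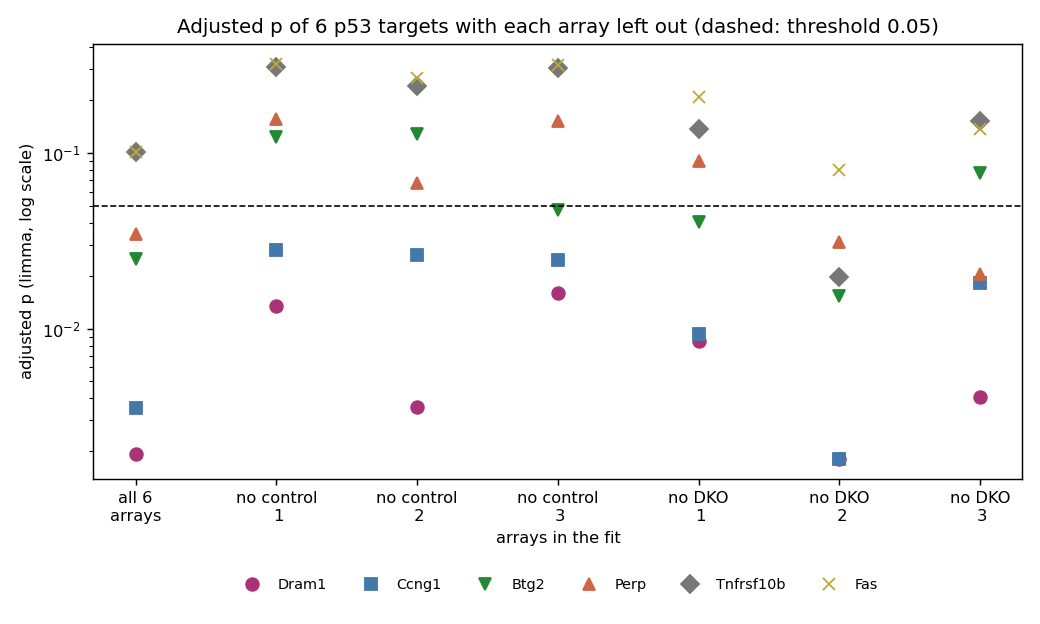
Adjusted p from limma, on a log scale, for 6 p53 targets in the fit on all arrays and with each array left out, with the threshold of 0.05 dashed. Dram1 and Ccng1 stay below the line throughout, Perp and Btg2 cross it, Tnfrsf10b falls below it in the fit without DKO 2, and Fas stays above it.

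Of the 17 core apoptosis genes, limma called 0 in either direction, where 1.03% of all genes rose and 1.38% fell. At an unadjusted p under 0.05, 1 was higher and 0 lower, against 6.00% and 6.83% of all genes. All 17 confidence intervals lay between -0.31 and 0.34, so the widest bound was a 1.26-fold difference in whole buds. A change in the epithelium alone would be diluted there. That bound belongs to Bcl2, and the other intervals reached less far from 0, such as -0.13 to 0.09 for Apaf1, -0.12 to 0.14 for Casp8 and -0.07 to 0.16 for Bid. The gene with that smallest p was Bcl2, the founding anti-apoptotic gene. It was at 10.50, 10.44 and 10.48 in control and at 10.55, 10.67 and 10.77 in DKO. Every DKO array was above every control, and DKO 1 only slightly (0.19, SE 0.06, interval 0.04 to 0.34, adjusted p = 0.224). With array weights Bcl2 passed (0.27, adjusted p = 0.0105), and over its other alternatives the adjusted p was 0.0976 to 0.523.

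Its anti-apoptotic relatives had changes of the opposite sign. Mcl1, a short-lived protector of many embryonic cells, was at 10.77, 10.79 and 10.81 in control and at 10.64, 10.67 and 10.75 in DKO. Bcl2l1, which encodes BCL-XL, was at 9.12, 9.22 and 9.13 in control and at 9.09, 9.09 and 9.04 in DKO. In both genes the groups were separate by a narrow margin, with changes of -0.10 (SE 0.05, adjusted p = 0.456) and -0.08 (SE 0.05, adjusted p = 0.615). The effector Bak1 was at 10.38, 10.07 and 10.18 in control and at 10.12, 10.04 and 10.06 in DKO, where control 1 stood above the rest and control 2 lay among the DKO arrays (-0.13, SE 0.08, interval -0.31 to 0.04, adjusted p = 0.557).

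The BH3-only genes, sensors that carry death signals to the BCL2 family, overlapped between the groups in all 5 cases. So did most genes, since DKO lay wholly above control for 8.36% of all genes and wholly below for 10.4%. Bcl2l11, which encodes BIM, had the largest value (0.12, SE 0.07, interval -0.05 to 0.28, adjusted p = 0.596), with DKO 1 at 9.53 against 9.22 to 9.30 in control and DKO 3 at 9.26. Bid, cleaved by Casp8 to join the receptor and mitochondrial routes, gave 0.05, and Bad, regulated by growth factor signalling, gave 0.03. Bmf, linked to loss of cell attachment, gave 0.04, and Bik, found at the endoplasmic reticulum, gave -0.04. The adjusted p of these 4 genes was 0.802 to 0.911.

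Of the 4 genes of caspase activation, 0 passed, where 1.03% of all genes rose and 1.38% fell. Casp8, the initiator of the receptor pathway, changed by 0.01, Casp9, the initiator of the mitochondrial pathway, by 0.03, and Apaf1, the scaffold of the apoptosome, by -0.02 (SE 0.05 to 0.06, adjusted p = 0.895 to 0.976). Apaf1 was among the steadiest genes, with 9.73, 9.73 and 9.74 in control and 9.70, 9.70 and 9.74 in DKO. Cycs, which encodes cytochrome c, gave 0.09 on its brightest probe (SE 0.06, adjusted p = 0.660). Of its other probes, 1 gave 0.09 and a much dimmer one gave -0.24 (adjusted p = 0.810 and 0.486 over all probes), so the sign of Cycs depends on the probe. Cycs is known to have processed pseudogenes, and whether these probes also pick up their transcripts was not tested.

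The genes of the IAP proteins and their antagonist did not pass either. Xiap, the direct caspase inhibitor, changed by -0.02, Birc2 and Birc3, which encode the ubiquitin ligases cIAP1 and cIAP2, by -0.05 and -0.09, and Diablo, which frees caspases from them, by 0.01. Their adjusted p was 0.679 to 0.981. DKO 2 was the lowest of all 6 arrays for each of these 4 genes. A further Birc2 probe gave -0.02.

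**Figure D4:**
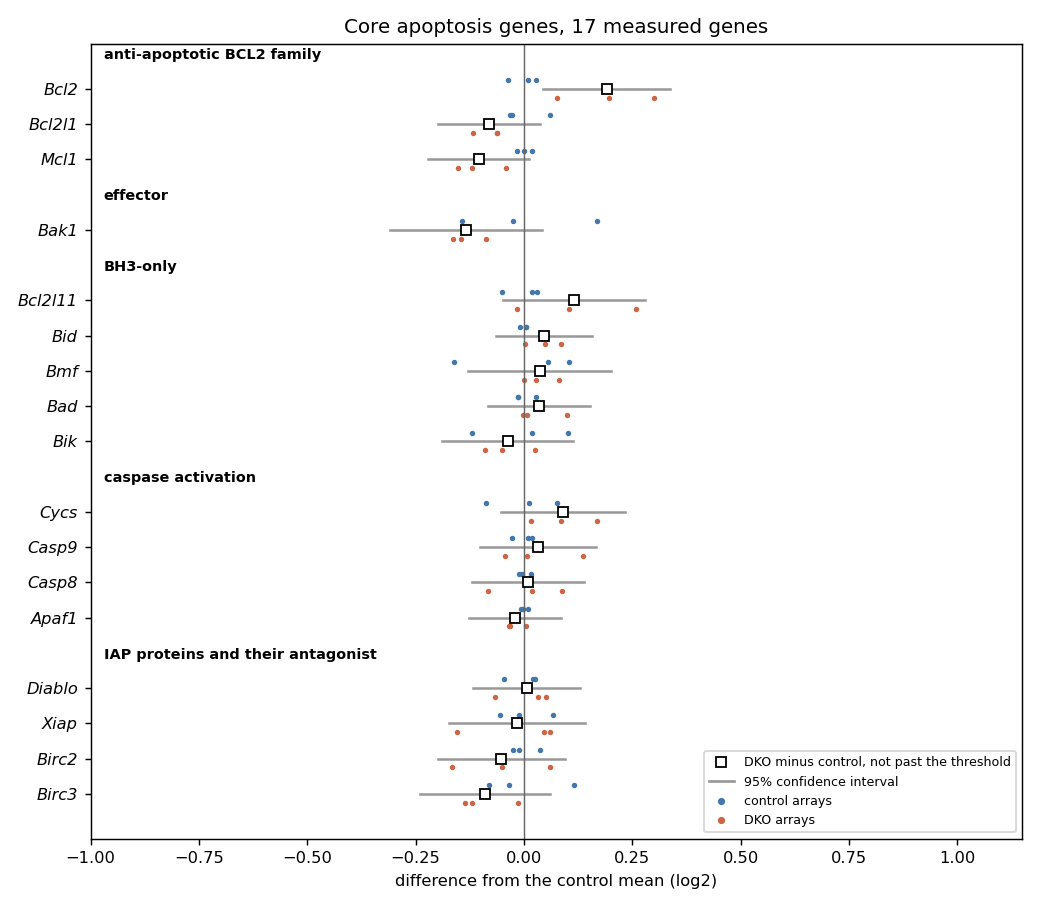
Change of each of the 17 core apoptosis genes, drawn as for the p53 genes and on the same axis: squares give DKO minus control on the log2 scale, lines the 95% confidence intervals, dots the single arrays relative to the control mean. No square is filled, since 0 genes passed, and all intervals lie between -0.31 and 0.34.

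Other genes of both pathways were drawn from a second list of 52 names, of which 45 were measured. Among 24 further p53 genes, 1 fell and 0 rose, against 1.38% and 1.03% of all genes. Among 21 further apoptosis genes limma called 0 in either direction, with 1 higher at an unadjusted p under 0.05, against 6.00% of all genes. The gene that fell was Thbs1, which encodes the angiogenesis inhibitor thrombospondin 1. It was at 11.98, 12.03 and 11.98 in control and at 11.45, 11.64 and 11.58 in DKO. The groups were far apart, a 1.35-fold fall (-0.44, SE 0.06, interval -0.58 to -0.30, adjusted p = 0.00714) that passed in all 6 fits with 1 array removed (adjusted p = 0.00224 to 0.0478).

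The next genes on that list did not pass. Sulf2, an extracellular heparan sulfatase, was at -0.17 (adjusted p = 0.188), and Rchy1, a ubiquitin ligase for p53, at 0.13 (adjusted p = 0.363). Eda2r, a member of the TNF receptor family, was at 6.59, 7.09 and 6.72 in control and 7.13, 7.06 and 7.11 in DKO. Control 2 lay among the DKO arrays, and without it Eda2r passed (0.45, adjusted p = 0.0287, against 0.30 and 0.283 on all arrays). The count of 1 call on this list became 2 without control 2 and 2 without DKO 2.

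The promoters of the called genes are shown because p53 acts through short DNA elements near its targets. RefSeq windows of 300 bases (250 before and 50 after the annotated start, GRCm38.p6) were matched by symbol for 33 of the 40 genes. No entry was given for Perp. Each window was searched on both strands for the p53 decamer consensus, of which a full p53 site holds a pair, for the GC box GGGCGG and for the CCAAT box, and matches are in capitals. The windows are Dram1 at chr10:88357026-88357325, Ccng1 at chr11:40755237-40755536 and Btg2 at chr1:134079106-134079405, all on the minus strand and written 5′ to 3′ along the gene.
Dram1: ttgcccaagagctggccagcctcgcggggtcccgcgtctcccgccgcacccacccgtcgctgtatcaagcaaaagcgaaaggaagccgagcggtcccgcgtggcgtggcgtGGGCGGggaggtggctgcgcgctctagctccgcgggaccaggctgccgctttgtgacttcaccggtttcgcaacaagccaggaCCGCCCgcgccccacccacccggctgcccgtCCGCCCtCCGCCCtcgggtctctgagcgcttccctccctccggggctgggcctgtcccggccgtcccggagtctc
Ccng1: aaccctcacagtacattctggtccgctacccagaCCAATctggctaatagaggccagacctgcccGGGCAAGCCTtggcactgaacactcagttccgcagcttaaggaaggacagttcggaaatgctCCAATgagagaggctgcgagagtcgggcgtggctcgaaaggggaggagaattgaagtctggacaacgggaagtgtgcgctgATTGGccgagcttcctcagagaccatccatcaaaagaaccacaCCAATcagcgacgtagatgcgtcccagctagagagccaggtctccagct
Btg2: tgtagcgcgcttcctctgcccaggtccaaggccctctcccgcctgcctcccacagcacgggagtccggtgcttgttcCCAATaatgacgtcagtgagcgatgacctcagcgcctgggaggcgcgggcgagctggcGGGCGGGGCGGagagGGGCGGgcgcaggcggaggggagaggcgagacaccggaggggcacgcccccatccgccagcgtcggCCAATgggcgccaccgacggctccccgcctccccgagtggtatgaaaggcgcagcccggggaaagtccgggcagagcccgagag

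The Dram1 window held 4 GC boxes and none of the other motifs. The Ccng1 window held 1 exact match to the p53 decamer, at bases 66 to 75 counted from 1 at its 5′ end. It also held 4 CCAAT boxes and no GC box. Only exact matches were marked, so a decamer with a mismatch, also one directly beside this match, was not counted. The Btg2 window held 3 GC boxes, of which the first 2 share 1 base, and 2 CCAAT boxes. Counting any window of a gene, 38.2% of all genes held a GC box, 41.1% a CCAAT box and 9.55% a p53 decamer, compared with 26, 17 and 8 of the 33 matched genes. A match is a description of letters and not a binding site.

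The 8 genes with a p53 decamer are compared here because 1 of them passed the threshold and the others did not. Each is given with 10 flanking bases on both sides in lower case and the decamer in capitals, 5′ to 3′ along the gene, in GRCm38.p6.
Aen: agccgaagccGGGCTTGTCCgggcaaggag
Birc2: cagtcaacccAGGCTAGTCTcgaatttgcg
Bmf: cccaagtgaaGGGCTTGCCTcttgccgaat
Ccng1: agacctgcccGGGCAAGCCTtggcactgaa
Ei24: cgtgcggcccGGGCATGCCCagtgtgggcg
Gadd45a: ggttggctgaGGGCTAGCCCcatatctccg
Mdm2: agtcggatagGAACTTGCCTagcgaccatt
Sesn1: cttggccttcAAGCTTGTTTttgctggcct

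These matches lie at chr7:78895927-78895956 (Aen, plus strand), chr9:7836777-7836806 (Birc2, minus strand), chr2:118544781-118544810 (Bmf, minus strand), chr11:40755452-40755481 (Ccng1, minus strand), chr9:36797325-36797354 (Ei24, minus strand), chr6:67037428-67037457 (Gadd45a, minus strand), chr10:117710925-117710954 (Mdm2, minus strand) and chr10:41887256-41887285 (Sesn1, plus strand). Of these 8 genes Ccng1 rose, and the changes of the other 7 lay between -0.06 and 0.04. An exact decamer match in the window was therefore not shared by the other called genes with a window, Dram1 and Btg2.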

How the data were processed

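Each of the 6 samples was 1 Affymetrix mouse gene array. The deposited table holds log2 expression values for 35556 probes, made with oligo, RMA and limma per the submitters' processing notes, which state neither versions nor settings. The log base and genome build are not given in the sources used here, and base 2 is inferred from RMA and from the range of the values. RMA makes the arrays alike in distribution, so a change common to all genes cannot be seen. The labels name the MoGene 1.1 ST array, whereas the probe table used for gene names is that of the MoGene 1.0 ST platform record, so the names rest on that record: 21789 probes had 1 gene, 1621 had several and 12146 were unnamed. The brightest probe was used for each of 19938 genes, 19856 of which matched RefSeq by Entrez identifier.

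DKO was compared with control in limma 3.58.1 (R 4.3.3; lmFit and eBayes, two-sided, group as the only term), with Benjamini-Hochberg adjustment over the 19938 genes and a threshold of 0.05. The fit was tested on simulated data. Alternatives were the replicate block, an intensity trend, array weights, a second normalization or median centring, and leaving out the dimmest 30% of genes. The others were the mean of a gene's probes, a fit and adjustment over all probes, and leaving out each array. The members and lists were chosen with earlier results of these data known. Named were all measured members, Hdac1, Hdac2 and the 4 genes with the smallest p on the list of other pathway genes. Promoters came from RefSeq (GRCm38.p6).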

Additional observations from a re-analysis of the deposited data

How the results depend on the processing

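Dram1 and Ccng1 kept their direction and their call under all 14 alternatives. The count of genes past the threshold went from 481 to 725 with an intensity trend and 2003 with array weights. It was 197 to 811 with 1 array left out. With the fit and adjustment over all probes, unnamed and shared ones included, 208 probes passed, and 148 of the 481 genes kept their call. For the p53 genes the count of 4 became 7 with array weights (adding Zmat3, Tnfrsf10b and Fas), 2 over all probes and 2 to 5 with 1 array left out. The count of 0 among core apoptosis genes became 1 with array weights (Bcl2) and stayed at 0 otherwise. For the other pathway genes the count of 1 became 5 with array weights and 1 to 2 with 1 array left out. The median of the core apoptosis genes was -0.0163 with the mean of all probes and -0.0318 to 0.0162 with 1 array left out. The cause of these shifts was not tested.

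Of 46 named genes, 17 changed sign under some setting, all at main changes within 0.09 of 0 and with 0 calls among them. Mdm2 became 0.049 with array weights, 0.0058 after a second quantile normalization and 0.0012 after median centring. With array weights Plk3 was -0.032, Pmaip1 -0.039 and Xiap 0.036, and Cycs was -0.019 as the mean of its probes. With 1 array left out the ranges were -0.035 to 0.028 for Mdm2, -0.076 to 0.047 for Gadd45a, -0.011 to 0.043 for Plk3, -0.025 to 0.099 for Sesn2, -0.023 to 0.039 for Trp53inp1, -0.055 to 0.011 for Phlda3, -0.042 to 0.099 for Bbc3, -0.075 to 0.089 for Pmaip1, -0.019 to 0.088 for Aen, -0.098 to 0.013 for Bik, -0.044 to 0.088 for Bmf, -0.032 to 0.054 for Casp8, -0.019 to 0.071 for Casp9, -0.017 to 0.042 for Diablo, -0.054 to 0.053 for Xiap and -0.11 to 0.0055 for Birc2.

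With the replicate number as a block, 406 genes passed, with the same count of 4 among p53 genes, and Hdac1 lost its call (adjusted p = 0.0507). Nothing in the labels pairs the arrays of the same number, so the numbers were not taken as pairs. Deviations of same-numbered arrays correlated at -0.0642, 0.0455 and 0.156, which cannot decide on pairing with so few arrays. The number of arrays limits the precision.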
